A study of Mus musculus with 4 samples.

Results

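Antioxidant enzymes remove superoxide, hydrogen peroxide and reactive quinones from cells. The genes described here are *Sod1*, *Sod2*, *Sod3*, *Cat*, *Gpx1*, *Gpx2*, *Gpx3*, *Prdx6*, *Nqo1* and *Hmox1*, 10 genes listed by symbol as a family, with earlier results of these data known. Of them, 9 are among the 19938 genes that the arrays name. A probe set counted for a gene when its annotation gave that symbol alone, and the brightest by its mean over the arrays would have been taken where a gene had several. Each of these 9 had 1 such probe set, and *Prdx6* was not analysed here. RNA came from whole embryonic lung at E18.5, close to birth. The *Hmga2*−/− group (labelled KO) had 2 arrays and the *Hmga2*+/+ group (labelled WT) had 2, with no treatment. The study's methods name C57BL/6 mice and *Hmga2*+/− mice, with the latter as the source of the null allele. They do not state the strain background of these embryos. The comparison asks how the loss of HMGA2, a chromatin protein that binds DNA rich in A and T, goes together with RNA levels before birth.

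Superoxide dismutases turn superoxide into hydrogen peroxide, and catalase and the glutathione peroxidases then break the peroxide down. NQO1 and HMOX1 deal with quinones and with heme, and their genes are textbook targets of the transcription factor NRF2. In the lung of several mammals this defence builds up late in gestation, ahead of the first breath of air, and part of it is secreted into the matrix and the lining fluid.

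The *Hmga2* probe set had log2 values of 9.65 and 9.39 in the arrays labelled KO, against 9.35 and 9.59 in the WT arrays, so it was not lower in the arrays labelled KO. Its difference, KO minus WT as in all differences below, was 0.051 on the log2 scale (standard error 0.16, adjusted p = 0.892 from limma). No source used here places its probes inside or outside the deletion, so the labels could not be checked by it, and every direction below is that of the arrays as labelled. The surfactant gene *Sftpc*, a defining lung marker, had 13.97 and 14.01 in the arrays labelled KO and 14.13 and 14.05 in the WT arrays. Over all probe sets the arrays labelled KO correlated at r = 0.997 with each other and at 0.976 with WT replicate 1, while WT replicate 2 correlated with them at 0.992 to 0.994. WT replicate 1 thus stood apart, also from WT replicate 2 (r = 0.985), and values are given below against each WT array where it matters. The median log2 value was 7.91 in KO replicate 2 and between 7.99 and 8.02 in the other arrays.

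No antioxidant enzyme gene passed limma's test over all genes at an adjusted p under 0.05. Of all genes tested, 0.0802% were called higher and 0.702% lower in the arrays labelled KO. Of the 9 measured members, 3 lay higher and 6 lower by group means, and their differences had a median of −0.13 log2 units, beside −0.051 over all genes. Both arrays labelled KO lay above both WT arrays for *Gpx2*, and below them for *Gpx3*, *Sod3*, *Cat* and *Sod2*. That is 1 of 9 and 4 of 9, where 17.6% and 31.8% of all genes had groups apart in these directions. An unadjusted p under 0.05 was reached by *Gpx3*, *Gpx2* and *Sod3*, 3 of 9, as by 14.5% of all genes. With 2 arrays against 2, the smallest p that an exact two-sided permutation test of a single gene can give is 0.333.

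**Figure D1:**
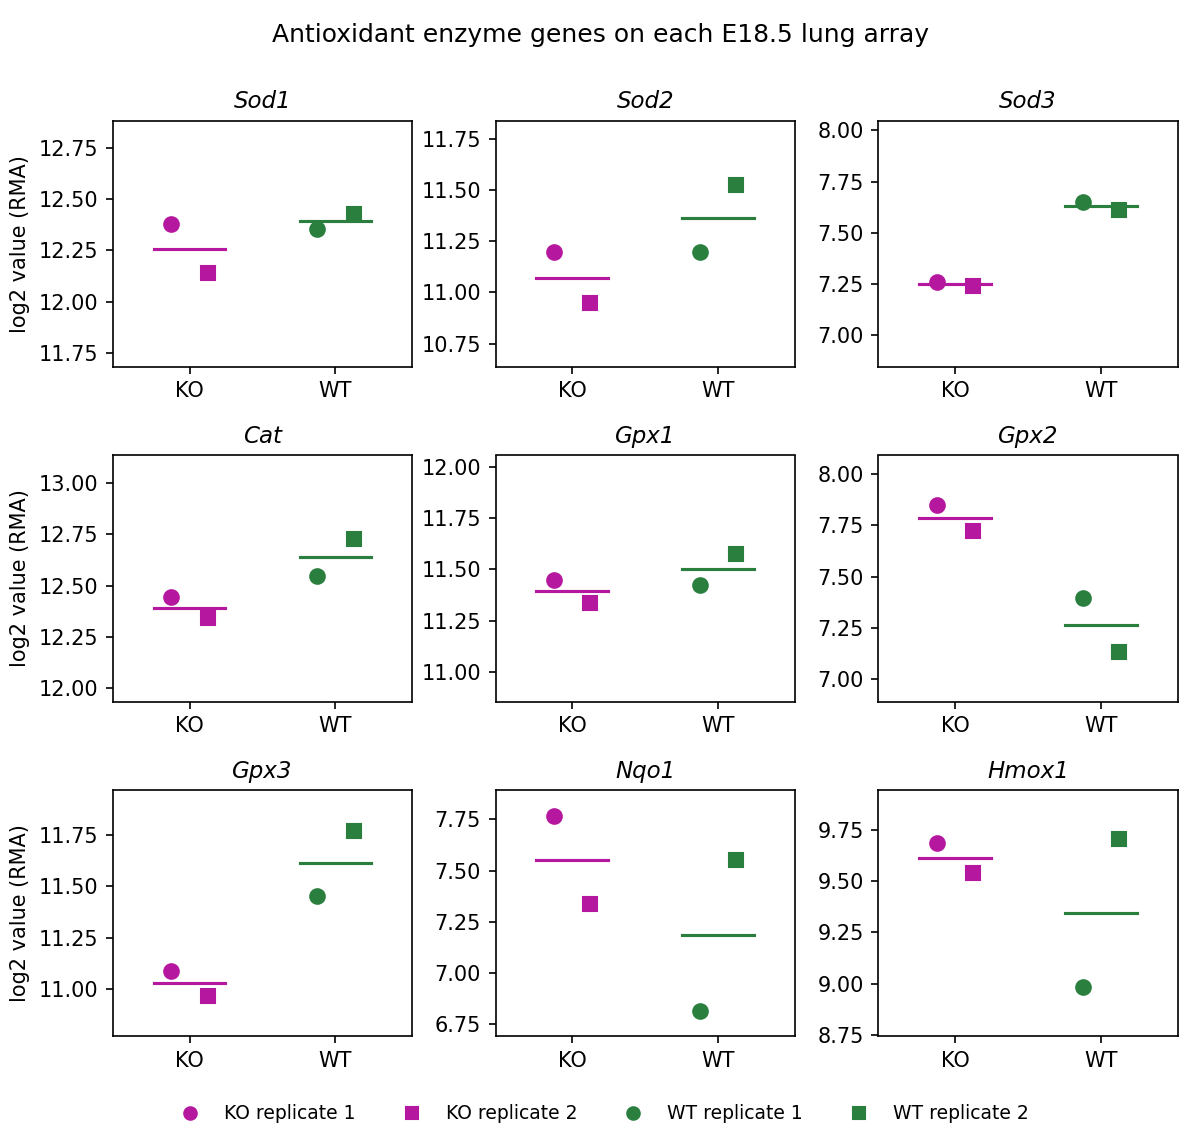
Log2 value of each measured antioxidant enzyme gene on each array, with the arrays labelled KO on the left, WT on the right and a bar at each group mean (n = 2 arrays each); every panel spans the same range of log2 units. The arrays labelled KO lie above WT for *Gpx2* and below it for *Gpx3*, *Sod3*, *Cat* and *Sod2*, and in *Nqo1* and *Hmox1* WT replicate 1 is the lowest of the 4 arrays.

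Sequence upstream of the start is shown for the genes at either end of the comparison, *Gpx2* and *Gpx3*, and for *Sod1*, whose window held a match to the antioxidant response element. This element, TGACNNNGC, is the core of the site that NRF2 binds together with small MAF proteins. Each line gives the 250 bases before the start site, 5′ to 3′ on the strand of the gene, from RefSeq on GRCm38.p6, with matches to the motifs searched in capitals.
*Gpx2*, chr12:76795555-76795804, minus strand: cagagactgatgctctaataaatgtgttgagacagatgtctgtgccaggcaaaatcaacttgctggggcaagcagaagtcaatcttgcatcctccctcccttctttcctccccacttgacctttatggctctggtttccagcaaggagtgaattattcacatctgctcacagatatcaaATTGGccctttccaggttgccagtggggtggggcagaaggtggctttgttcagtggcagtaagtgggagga
*Gpx3*, chr11:54902604-54902853, plus strand: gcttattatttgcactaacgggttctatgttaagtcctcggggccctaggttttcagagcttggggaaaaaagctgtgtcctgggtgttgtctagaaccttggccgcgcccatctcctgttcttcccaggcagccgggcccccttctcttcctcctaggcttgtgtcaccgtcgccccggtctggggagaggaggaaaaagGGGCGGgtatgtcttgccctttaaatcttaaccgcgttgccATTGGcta
*Sod1*, chr16:90220512-90220761, plus strand: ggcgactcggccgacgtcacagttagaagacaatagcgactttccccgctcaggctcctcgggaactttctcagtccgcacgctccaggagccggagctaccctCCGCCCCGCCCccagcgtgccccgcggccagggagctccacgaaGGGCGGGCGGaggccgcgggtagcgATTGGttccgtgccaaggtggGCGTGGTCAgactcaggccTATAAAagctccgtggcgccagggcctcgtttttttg

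Both strands were searched for TGACNNNGC, for the CCAAT box, for the TATA box as TATAAA and for the GC box as GGGCGG, in 7 members with such a window and in all 32851 windows of the table. The antioxidant response element was found in 1 of the 7, *Sod1*, as TGACCACGC on the opposite strand with its leftmost base in the printed line at position −56 from the start, where 10.2% of all windows hold a match. *Nqo1*, a known NRF2 target, had no match in these 250 bases. The CCAAT box was found in 5 of 7 members and in 33.8% of all windows, the GC box in 5 of 7 and in 32.7%, and the TATA box in *Sod1* and *Nqo1* only among the members and in 12.4% of all windows. *Gpx2* had 1 match in all, a CCAAT box, and *Gpx3* had a GC box and a CCAAT box. In *Sod1* the GC boxes form 2 overlapping pairs, each printed as 1 run of capitals. A and T made up 50.8% of the window of *Gpx2*, 44.8% of *Gpx3*, 33.6% of *Sod1* and 58% of *Gpx1*, the highest member, with a median of 47.6% over all windows. These matches describe the letters only and were not set against binding of any protein.

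Of the superoxide dismutases, the extracellular enzyme *Sod3* had the most even levels within each group, and the cytosolic and mitochondrial forms lay closer together between groups. *Sod3* had log2 values of 7.26 and 7.24 in the arrays labelled KO, against 7.65 and 7.61 in the WT arrays. The gap of either group to the other was wide beside the gap within it, and the difference was −0.38 (standard error 0.12, 95% interval −0.68 to −0.081, adjusted p = 0.242 from limma), a level 0.768 times that of WT. It was the member that depended least on the choice of WT array, at −0.40 when only WT replicate 1 was used and −0.36 when only WT replicate 2 was. *Sod3* was among the dimmest 40 percent of genes, with a mean log2 value of 7.44.

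*Sod2*, which works in the matrix of mitochondria, had 11.20 and 10.95 in the arrays labelled KO, against 11.20 and 11.53 in the WT arrays. KO replicate 1 was thus level with WT replicate 1 to within the second decimal, and the groups were apart by that margin only. The difference was −0.29 (standard error 0.17, 95% interval −0.70 to 0.11, adjusted p = 0.460 from limma). *Sod1*, the copper and zinc enzyme of the cytosol, had 12.38 and 12.14 in the arrays labelled KO, against 12.36 and 12.43 in the WT arrays. Here KO replicate 1 lay between the WT arrays, so the groups overlapped, and the difference was −0.13 (95% interval −0.48 to 0.21).

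*Cat* encodes catalase, the peroxisomal enzyme that splits hydrogen peroxide without a cosubstrate. It had log2 values of 12.44 and 12.34 in the arrays labelled KO, against 12.55 and 12.73 in the WT arrays. Both arrays labelled KO were lower than either WT array, and their mean stood at −0.15 relative to WT replicate 1 and −0.34 relative to WT replicate 2. The difference was −0.24 (standard error 0.14, 95% interval −0.57 to 0.084, adjusted p = 0.447 from limma).

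The glutathione peroxidases held both the highest and the lowest difference of the family. *Gpx3*, the secreted enzyme of plasma and lining fluid, had log2 values of 11.09 and 10.97 in the arrays labelled KO, against 11.45 and 11.77 in the WT arrays. All values in the arrays labelled KO were lower, and the level was 0.666 times that of WT. The difference was −0.59 (standard error 0.16, 95% interval −0.96 to −0.21, adjusted p = 0.168 from limma). Taken against a single WT array it was −0.43 (replicate 1) or −0.75 (replicate 2).

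*Gpx2*, the epithelial form first described in the gut, had 7.85 and 7.72 in the arrays labelled KO, against 7.39 and 7.13 in the WT arrays. It was the 1 member that lay wholly above WT, at 1.43 times its level. The difference was 0.52 (standard error 0.15, 95% interval 0.16 to 0.88, adjusted p = 0.190 from limma), and a single WT array gave 0.39 (replicate 1) or 0.65 (replicate 2). Its mean log2 value of 7.52 puts it among the dimmest 40 percent of genes, as *Sod3* and *Nqo1*. *Gpx1*, the form found throughout the cytosol, had 11.45 and 11.33 in the arrays labelled KO, against 11.42 and 11.58 in the WT arrays. Its groups overlapped and it had the smallest difference of the family, −0.11 (95% interval −0.43 to 0.22).

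The other 5 glutathione peroxidases were measured as well, with a median difference of −0.12 and 0 genes called. *Gpx4*, which reduces lipid peroxides in membranes, stood at −0.18 (standard error 0.15, limma's adjusted p = 0.598). Its value was −0.028 when only WT replicate 1 was used and −0.32 when only WT replicate 2 was. *Gpx7* and *Gpx8*, which sit in the endoplasmic reticulum, had 0.20 and 0.19. With WT replicate 1 these were 0.48 and 0.37, and with WT replicate 2 they were −0.081 and 0.0048. The groups of all 3 genes overlapped, and *Gpx5*, an enzyme of the epididymis, had −0.13.

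*Nqo1* and *Hmox1*, the members known best as inducible genes, differed more between the WT arrays than between the group means. *Nqo1* encodes a quinone reductase. Its log2 values were 7.77 and 7.34 in the arrays labelled KO, against 6.82 and 7.55 in the WT arrays. The WT arrays were 0.74 apart, and the difference of 0.37 (standard error 0.27, 95% interval −0.28 to 1.01, adjusted p = 0.541 from limma) came to 0.74 with WT replicate 1 as the only WT array and to 0.0013 with WT replicate 2.

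*Hmox1* encodes heme oxygenase, which breaks heme down to biliverdin, iron and carbon monoxide. It had 9.69 and 9.54 in the arrays labelled KO, against 8.98 and 9.70 in the WT arrays. WT replicate 2 was the highest of all arrays and WT replicate 1 the lowest, 0.72 apart. The difference was 0.27 (standard error 0.24, 95% interval −0.31 to 0.85, adjusted p = 0.610 from limma), and came to 0.63 with WT replicate 1 as the only WT array and −0.091 with WT replicate 2.

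**Figure D2:**
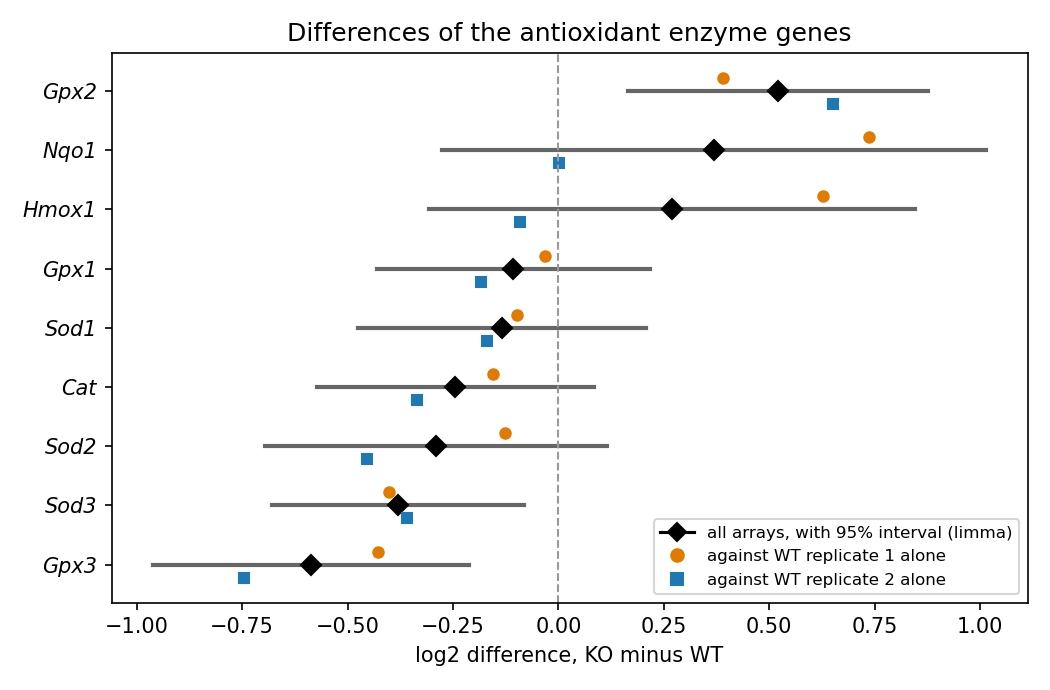
Log2 difference, KO minus WT as labelled, of each measured antioxidant enzyme gene (diamonds, with the 95% interval from limma as bars), and the mean of the arrays labelled KO minus WT replicate 1 alone (circles) or WT replicate 2 alone (squares). The intervals of *Gpx2*, *Sod3* and *Gpx3* do not hold 0, and the points of *Nqo1* (0.74 and 0.0013) and *Hmox1* (0.63 and −0.091) lie far apart.

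Leaving out a WT array moved these calls. Without WT replicate 1, limma called 3 members, *Gpx2* (0.65, adjusted p = 0.000778), *Gpx3* (−0.75, adjusted p = 6.22e-05) and *Sod2* (−0.45, adjusted p = 0.0435). Without WT replicate 2 it called 5, *Gpx2* (0.39, adjusted p = 0.0401), *Gpx3* (−0.43, adjusted p = 0.0223), *Sod3* (−0.40, adjusted p = 0.0338), *Nqo1* (0.74, adjusted p = 2.23e-05) and *Hmox1* (0.63, adjusted p = 0.000382). In these fits the spread comes from the arrays labelled KO alone, and 1638 and 6292 of all genes were called, against 156 with all arrays. Without either array labelled KO, 0 members and at most 1 of all genes were called, with 1057 and 968 genes at an unadjusted p under 0.05.

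Genes that work beside these enzymes went both ways, and those called were all lower in the arrays labelled KO. Of 69 measured genes in the lists of peroxidases, thioredoxin and glutathione systems, NADPH supply, NRF2 regulators, heme and iron handling, other detoxifying enzymes and oxidant sources, 0 were called higher and 4 lower, beside 0.0802% and 0.702% of all genes. The 4 were *Pon3* and, of the 11 oxidant sources measured, *Xdh*, *Cybb* and *Ncf1*.

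In the thioredoxin and peroxiredoxin system, 9 of 15 measured genes averaged higher in the arrays labelled KO. The median difference was 0.043 and 0 genes were called. *Txnip*, which binds and inhibits thioredoxin, had log2 values of 12.01 and 11.99 in the arrays labelled KO, against 12.43 and 12.45 in the WT arrays, and so −0.45 as its difference (limma's adjusted p = 0.183). *Txnrd1*, the cytosolic thioredoxin reductase, had 9.989 and 9.996, against 9.33 and 9.65 in the WT arrays, a difference of 0.50 (adjusted p = 0.214). Neither gene had overlapping groups, nor did 49.4% of all genes, and both were named for the smallest p of their list. The peroxiredoxin genes *Prdx4* and *Prdx2* had differences of 0.60 and 0.42, of which WT replicate 2 alone gave 0.29 and 0.18 and WT replicate 1 alone 0.92 and 0.66.

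Glutathione synthesis and NADPH supply had medians of −0.049 over 6 genes and −0.060 over 6 genes, with 0 called in either. Both medians turned with the WT array, at 0.058 and 0.12 for WT replicate 1 and −0.14 and −0.22 for WT replicate 2. *Gclc*, the catalytic subunit of the first enzyme of glutathione synthesis, had log2 values of 10.65 and 10.56 in the arrays labelled KO, against 11.04 and 11.01 in the WT arrays. Its arrays were close within each group and apart between them, and the difference was −0.42 (standard error 0.13, limma's adjusted p = 0.209). *Gsr*, glutathione reductase, had 0.22, the cystine transporter *Slc7a11* −0.11 and *Chac1*, which degrades glutathione, −0.089. Of the NADPH genes, *Tkt*, transketolase, had 0.28 and *Nnt*, the mitochondrial transhydrogenase, 0.24, while *Me1*, malic enzyme, had −0.27 and *Idh1*, the cytosolic isocitrate dehydrogenase, −0.13.

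Of the 10 regulators of the NRF2 pathway, 5 averaged higher and 5 lower, the median was 0.0055 and 0 were called. This balance was a mean over unlike WT arrays, since 6 of 10 were above WT replicate 1 (median 0.11) and 2 of 10 above WT replicate 2 (median −0.14). *Bach1*, a repressor that competes with NRF2 at *Hmox1*, had log2 values of 9.82 and 9.70 in the arrays labelled KO, against 10.31 and 10.21 in the WT arrays. The groups did not overlap, and the difference of −0.50 (standard error 0.13, limma's adjusted p = 0.165) was −0.55 and −0.45 against WT replicates 1 and 2 alone. The small MAF genes *Mafk* and *Maff*, whose proteins pair with both NRF2 and BACH1, had −0.43 (limma's adjusted p = 0.236) and −0.35 (adjusted p = 0.315), again with no overlap. *Bach1*, *Mafk* and *Maff* were named for the smallest p of their list, and 49.4% of all genes had groups apart. *Rbx1*, part of the ligase complex that KEAP1 recruits, had 0.19 with overlapping groups. *Nfe2l2*, which encodes NRF2 itself, was added after its values were seen. It had 12.35 and 12.17 in the arrays labelled KO, against 12.01 and 12.48 in the WT arrays, a difference of 0.016 that was 0.25 with WT replicate 1 and −0.22 with WT replicate 2.

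In heme, iron and metal handling, 7 of 9 genes had a higher mean, with a median of 0.11 and 0 called. The direction rested on WT replicate 1, above which all 9 lay (median 0.46), whereas 2 of 9, *Tfrc* and *Slc40a1*, lay above WT replicate 2 (median −0.15). *Slc40a1*, the iron exporter ferroportin, had 9.19 and 9.19 in the arrays labelled KO, against 8.17 and 8.94 in the WT arrays. Most of its difference of 0.64 (standard error 0.25, limma's adjusted p = 0.322) lay in WT replicate 1, with 1.02 against that array and 0.25 against WT replicate 2. *Tfrc*, the transferrin receptor, had 0.41 (adjusted p = 0.262), and *Ftl1*, ferritin light chain, and *Blvra*, biliverdin reductase, had 0.22 and 0.11 with overlapping groups.

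Of the genes whose enzymes make superoxide or other oxidants, 3 fell in the arrays labelled KO. All 11 measured averaged lower there, as did 11733 of all 19938 genes, and their median was −0.31 log2 units. The differences ran from −1.36 to −0.0030. Against a single WT array, 2 of 11 were higher than WT replicate 1 (median −0.20) and 1 of 11 higher than WT replicate 2 (median −0.45). Several of the 11 were among the dimmest 40 percent of genes, with mean log2 values under 7.56, and the smallest differences lay among those. *Xdh*, xanthine dehydrogenase, had log2 values of 9.28 and 9.19 in the arrays labelled KO, against 10.80 and 10.41 in the WT arrays, which gave −1.36 (standard error 0.17, limma's adjusted p = 0.0291). *Cybb*, the catalytic subunit of the phagocyte NADPH oxidase, had 9.32 and 8.96, against 10.37 and 10.48 in the WT arrays, which gave −1.29 (standard error 0.16, adjusted p = 0.0303). *Ncf1*, a cytosolic subunit of the same oxidase, had 8.90 and 8.80, against 9.78 and 9.90 in the WT arrays, which gave −0.99 (standard error 0.13, adjusted p = 0.0352). In each of the 3 the groups were further apart than the arrays within them. *Nox4*, an oxidase of mesenchymal and endothelial cells, had −0.57 (standard error 0.14, adjusted p = 0.144).

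Among the other detoxifying enzymes, 7 genes, *Pon3* fell, and it was the 1 gene called. Their median of 0.096 was 0.40 with WT replicate 1 and −0.21 with WT replicate 2. *Pon3* encodes a paraoxonase that hydrolyses lactones and protects lipids, and had 10.62 and 10.33 in the arrays labelled KO, against 11.53 and 11.56 in the WT arrays, which gave −1.07 (standard error 0.15, limma's adjusted p = 0.0399). Its relative *Pon2* had −0.40 (adjusted p = 0.224), the epoxide hydrolase *Ephx1* −0.49 (adjusted p = 0.387) and the carbonyl reductase *Cbr1* 0.44 (adjusted p = 0.485). *Ephx1* was −0.20 with WT replicate 1 and −0.78 with WT replicate 2, and *Cbr1* was 0.88 and 0.013 in the same order. The calls on *Pon3*, *Xdh*, *Cybb* and *Ncf1* ended without KO replicate 1, with differences of −1.22, −1.41, −1.47 and −1.04, or without KO replicate 2, with −0.93, −1.32, −1.11 and −0.93. The highest adjusted p among these fits was 0.931, in fits that called at most 1 of all genes.

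**Figure D3:**
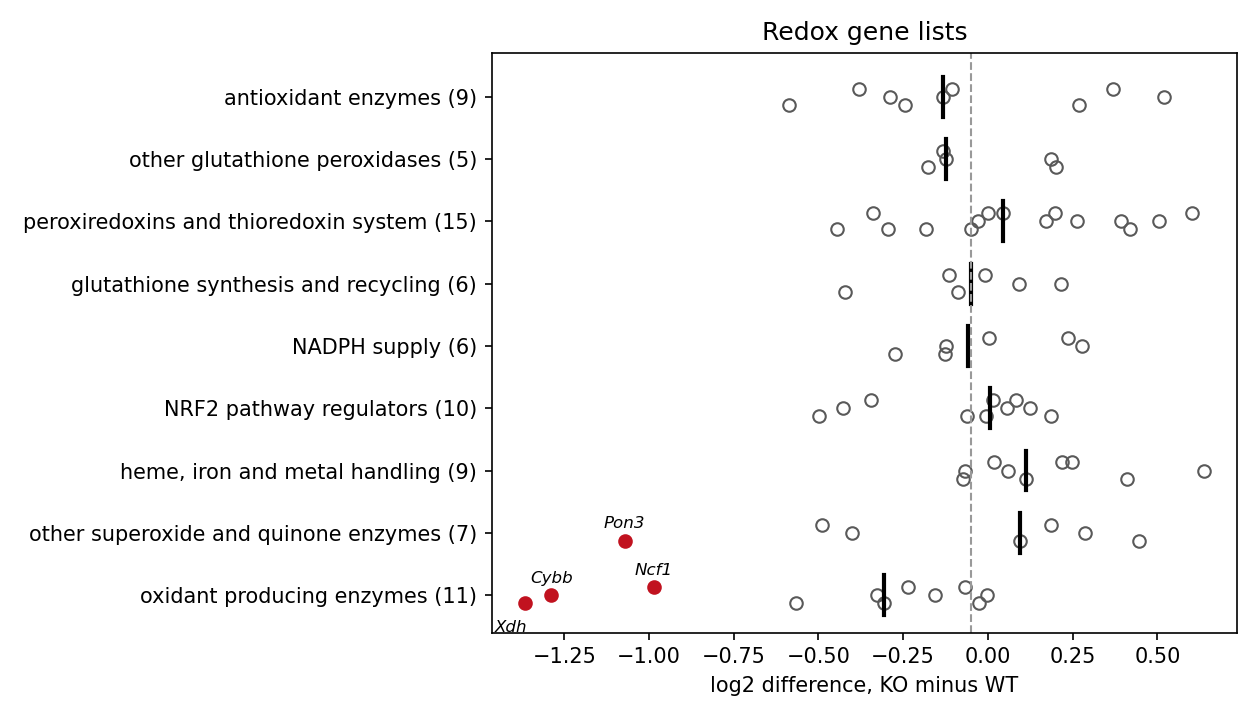
Log2 difference, KO minus WT as labelled, of every measured gene in each list, with the number of genes in brackets, the median of the list as a black bar and the median of all genes (−0.051) as a dashed line; filled points were called by limma. The antioxidant enzymes reach from −0.59 to 0.52, and the filled points are *Pon3*, *Xdh*, *Cybb* and *Ncf1*.

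Markers of several cell types moved with the labels too, and their part in the differences above was not tested. In whole lung, fewer cells of a type and less RNA per cell cannot be told apart. Over all genes, 0.702% were called lower and 0.0802% higher in the arrays labelled KO, and 11733 of 19938 had a lower mean. Of 10 markers of alveolar type II cells, which make surfactant, 9 averaged lower in the arrays labelled KO and 4 fell, *Sftpd*, *Lyz2*, *Lamp3* and *Sftpa1*. Their mean log2 value was 11.63 and 11.64 in the arrays labelled KO, against 12.61 and 12.54 in the WT arrays. All 8 markers of alveolar type I cells had a lower mean, with *Aqp5* and *Rtkn2* called. Of 9 markers of airway epithelium 6 were lower, with *Scgb1a1* called. Macrophage and monocyte markers had a lower mean in 11 of 12 genes, with *Mpeg1* called. Their differences ran from −1.27 to 0.011, with a median of −0.31 beside −0.051 over all genes. They averaged 8.33 and 8.19 in the arrays labelled KO, against 8.52 and 8.71 in the WT arrays. All 9 neutrophil markers were lower with 0 called, at 6.63 and 6.47, against 7.02 and 7.02 in the WT arrays. Of endothelial markers 7 of 8 were lower with 0 called, and the 5 erythroid markers measured of 11 listed averaged 7.93 and 7.84, against 8.09 and 8.08 in the WT arrays.

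Mesenchymal and smooth muscle markers had a higher mean in 8 of 10 genes, with *Dcn* called higher. Of all 19938 genes, 8205 had a higher mean and 0.0802% were called higher. The 7 measured proliferation markers all had a higher mean with 0 called, at 11.37 and 11.31 in the arrays labelled KO, against 10.07 and 10.76 in the WT arrays. WT replicate 1 was thus lowest in this list, as it was for *Nqo1* and *Hmox1*. Values from RMA carry no detection call and none is 0, so whether a marker is absent from a group cannot be read from them.

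**Figure D4:**
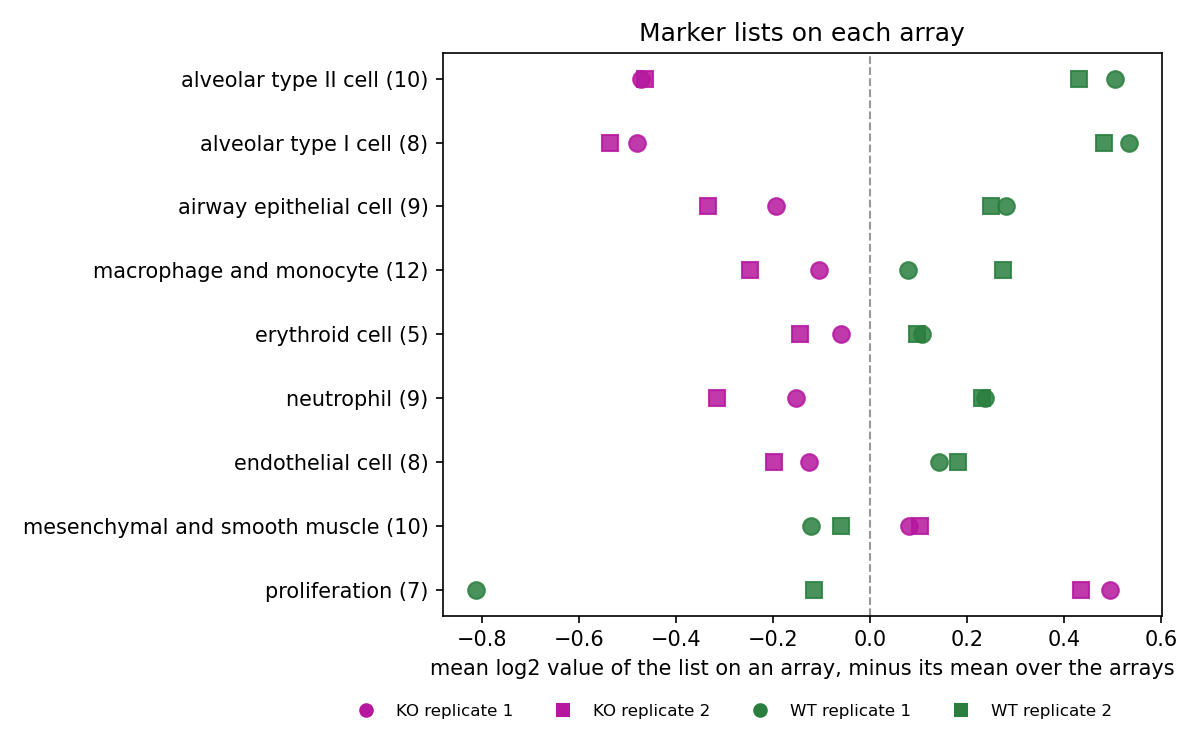
Mean log2 value of each marker list on each array, minus the mean of the list over the 4 arrays, with the number of measured genes in brackets. The arrays labelled KO lie below WT for both alveolar lists (type II, 11.63 and 11.64 against 12.61 and 12.54) and above it for proliferation, where WT replicate 1 is lowest (10.07).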

How the data were processed

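Affymetrix arrays of RNA from E18.5 lung were grouped by genotype from their titles, with 2 biological replicates labelled KO and 2 labelled WT. That these came from separate embryos rests on the labels, and the titles of both WT samples carry 1 group name, so p values measure only the spread between these samples. The deposited table holds log2 values for 30177 probe sets. Per the labels, RMA was run in Affymetrix Expression Console, and versions are not given in the sources used here. RMA corrects background, quantile-normalizes and summarises probes, so a shift shared by all genes of an array would be lost. The platform annotation gives 21789 probe sets 1 symbol, 1621 several and 6767 none here. The brightest stood for each of 19938 genes, of which 19856 matched RefSeq genes of GRCm38.p6 by Entrez ID. Of the genes given by name, *Gpx4*, *Prdx2*, *Me1* and *Rbx1* had 2 such probe sets, and the dimmer is not described. The number of arrays limits the precision.

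KO minus WT was fitted with limma 3.58.1 in R 4.3.3 (lmFit, eBayes, 2 residual and 4.42 prior degrees of freedom), and p values were adjusted over all genes by Benjamini and Hochberg's method at 0.05. The code was tested on simulated data. The members and lists were chosen with earlier results of these data known. Named are *Hmga2*, all members, and from each list the genes called and, for the redox lists, up to 4 with the smallest p. Marker lists are given as counts, and of them the genes called and *Sftpc*. Alternatives were to block on the replicate number, to centre arrays on their medians, to normalize by cyclic loess, to drop the dimmest 40 percent of genes, to average a gene's probe sets, to use eBayes with trend and robust, to call at 0.10 and to leave out each array. Motifs were searched with Python 3.11.15, and figures drawn with matplotlib 3.10.9.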

Additional observations from a re-analysis of the deposited data

How the results depend on the processing

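With all arrays, 0 members were called under every alternative. Over the fits that left out 1 array, the number called ran from 0 to 5 for the members, from 0 to 6292 for all genes, from 0 to 24 for the redox lists and from 0 to 38 for the marker lists, and the median difference of the members ran from −0.25 to −0.050. Of 105 values of the members over the alternatives, 1 turned in direction: *Hmox1* ran from −0.091 without WT replicate 1 to 0.63 without WT replicate 2. Many of the others could not turn. The replicate block, its crossed form chosen after seeing the data, trend and robust and the looser threshold leave a difference as it was. So do dropping dim genes and averaging probe sets, as each member had 1. *Cat* was −0.24 in each of these, and also after median centring. Direction was thus tested in effect only by cyclic loess and by leaving out an array. Members changed their side of the threshold only in fits that left out a WT array. *Gpx2* ran from 0.39 to 0.65, *Gpx3* from −0.75 to −0.43 and *Sod3* from −0.40 to −0.33. Groups did not overlap for 5 of 9 members, beside 49.4% of all genes. After median centring of the arrays or cyclic loess this was 7, with *Sod1* and *Gpx1* added, beside 50.0% and 51.5% of all genes. Without the dimmest 40 percent of genes, which leaves out *Sod3*, *Gpx2* and *Nqo1*, it was 3 of 6, beside 48.6%. With 1 array left out it was 6 to 8 of 9, beside 69.2% to 85.4%, where a group of 1 array overlaps less by construction.

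Over all genes, 156 were called, 16 of them higher. This became 294 after median centring (73 higher), 350 with cyclic loess (80 higher), 301 without the dimmest 40 percent (74 higher) and 457 at a threshold of 0.10. Marker genes called numbered 9, and 15 with cyclic loess, 14 with trend and robust and 18 at 0.10. The deviations of arrays with the same replicate number correlated at −0.24 over genes. With 2 arrays per group the crossed pairing must give the same size with the opposite sign, 0.24. The sign thus cannot show whether the number pairs the samples. With the replicate block, 602 of all genes and 16 marker genes were called, and 0 members. A crossed pairing, chosen after seeing the data, called 512, 16 and 0. The cause of these shifts was not tested.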
